A study of Mus musculus with 48 samples.

Results

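The 10 genes described here belong to the epidermal growth factor (EGF) family and were followed in the small intestine of growing mice. They were chosen by name: 3 receptors (Egfr, Erbb2, Erbb3), 6 ligands of Egfr (Egf, Tgfa, Areg, Ereg, Hbegf, Btc) and the neuregulin Nrg1. They are 10 of the 54532 genes of the deposited count table, each matched 1 identifier, and all 10 were among the 21986 genes that passed the filter on low counts. The tissue was whole-thickness bowel of C57Bl/6J mice of both sexes, in 2 cm pieces taken just past the pylorus (duodenum) and just before the caecum (ileum). Ages were day 0, 2, 4, 6 and 8, then week 2, 3 and 4, counted from birth. The labels name no treatment, and pups stayed with the dam until day 21. The labels give the housing as germ-free and also speak of limiting differences in microbes met, so the microbial state is uncertain. Each of the 16 groups has 3 samples in the labels, and the day 6 samples numbered 3 of both regions, which look exchanged, were left out: Pdx1, a proximal gut factor, stood at 0.115 CPM in the one labelled duodenum and 14.6 in the one labelled ileum. CPM here are counts of a gene per 1000000 counts of the library after TMM scaling. That left 46 samples, with 2 in each day 6 group.

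EGF family ligands are made as membrane proteins, most are cut free by proteases, and they bind receptors of the ErbB family, which pair up and switch on kinase cascades inside the cell. Egfr binds the EGF-type ligands, Erbb2 binds no known ligand and serves as partner, and Erbb3, whose own kinase is weak, binds neuregulins. In the intestine the family is known for crypt cell division, repair after injury and, through EGF carried in milk, for effects on the suckling gut.

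Ereg, Areg and Btc lie close together on chromosome 5 (build GRCm38, GENCODE M21 annotation), at 91074622 to 91093646 and 91139599 to 91148432 on the forward strand and 91357261 to 91402994 on the reverse strand. The related gene Epgn begins the cluster at 91027464. Of the others, Egfr (ENSMUSG00000020122) at 16752203 to 16918158 on chromosome 11, Erbb2 (ENSMUSG00000062312) at 98412470 to 98437716 on chromosome 11, Erbb3 (ENSMUSG00000018166) at 128567523 to 128589652 on chromosome 10 and Tgfa (ENSMUSG00000029999) at 86195223 to 86275719 on chromosome 6 are protein-coding genes on other chromosomes. The RefSeq promoter table (GRCm38.p6) held 6 of the 10 members, and not Erbb3, Ereg, Hbegf or Nrg1. The 250 bases before the start are shown for 3 ligands whose RNA changed with age, as a pair from this cluster that moved in opposite directions (Areg up, Btc down) and the ligand that fell in the first days (Tgfa). The windows are chr5:91139349-91139598 on the forward strand for Areg, chr5:91402995-91403244 on the reverse strand for Btc and chr6:86194972-86195221 on the forward strand for Tgfa, each read in the direction of the gene. Capitals mark the motifs searched on both strands, namely the TATA box TATAAA, the cyclic AMP element TGACGTCA, the AP-1 site TGANTCA and the GC box GGGCGG.
Areg: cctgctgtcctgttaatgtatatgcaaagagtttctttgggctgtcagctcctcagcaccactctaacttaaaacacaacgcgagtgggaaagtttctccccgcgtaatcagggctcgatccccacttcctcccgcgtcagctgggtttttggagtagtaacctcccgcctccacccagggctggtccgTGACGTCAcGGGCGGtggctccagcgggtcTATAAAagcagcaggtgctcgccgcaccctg
Btc: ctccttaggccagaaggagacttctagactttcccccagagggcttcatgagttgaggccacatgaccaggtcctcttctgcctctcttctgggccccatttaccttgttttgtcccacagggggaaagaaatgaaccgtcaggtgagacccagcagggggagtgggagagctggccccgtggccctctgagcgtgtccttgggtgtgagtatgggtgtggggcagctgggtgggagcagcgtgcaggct
Tgfa: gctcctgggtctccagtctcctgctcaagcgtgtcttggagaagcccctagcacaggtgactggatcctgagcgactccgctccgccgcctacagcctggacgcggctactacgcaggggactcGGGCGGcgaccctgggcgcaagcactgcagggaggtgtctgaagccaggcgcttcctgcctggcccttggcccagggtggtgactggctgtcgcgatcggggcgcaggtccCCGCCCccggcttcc

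The Areg window held TGACGTCA beginning 61 bases before the start, GGGCGG at 52 and TATAAA at 31, with no overlap between them. The Tgfa window held the GC box at 126 and, on the other strand, at 15 bases before the start, and had a GC content of 69.2%, against a median of 52.4% over all windows. In the Btc window none of these letter strings occurred. Of 32851 windows of this length, 1.55% held TGACGTCA, 12.4% TATAAA, 6.75% TGANTCA and 32.7% GGGCGG on either strand. A match is a run of letters and was not tested as a binding site.

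Total estimated counts ranged from 16824021 to 65042327 per sample, 23173093 to 65042327 in the duodenum and 16824021 to 42029626 in the ileum. Errors of levels are SDs over the samples of a group. The region labels were checked with Pdx1, which stood at 1.81 to 25.02 CPM in duodenum and 0.0678 to 6.51 in ileum. Fabp6, the ileal bile acid binding protein, stood at 0 to 4.74 and 1.77 to 1936 CPM. With all ages pooled, the ranges of the 2 regions overlap for both genes. Summed levels of 7 epithelial markers were 3119 to 11922 CPM, whereas 6 smooth muscle markers (Acta2, Myh11 and others) summed to 4.68 to 44.5 CPM in the duodenum and 12.9 to 194 in the ileum, low for whole-thickness bowel. Ddx3y, a Y-linked gene, was at 1 CPM or more in 16 of 46 samples, among them 3 of 3 duodenum and 1 of 3 ileum samples of day 0 and none of day 6, day 8 or week 4. Week 2 had 1 such sample of 3 in each region and week 3 had 2 of 3. Sex and age therefore cannot be fully told apart in comparisons of ages whose numbers differ, such as week 4 with day 0. The same holds for other ages against duodenum day 0, and for sex and region at day 0. The labels do not tie sample numbers to mice, so p-values measure the spread between these samples.

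**Figure D1:**
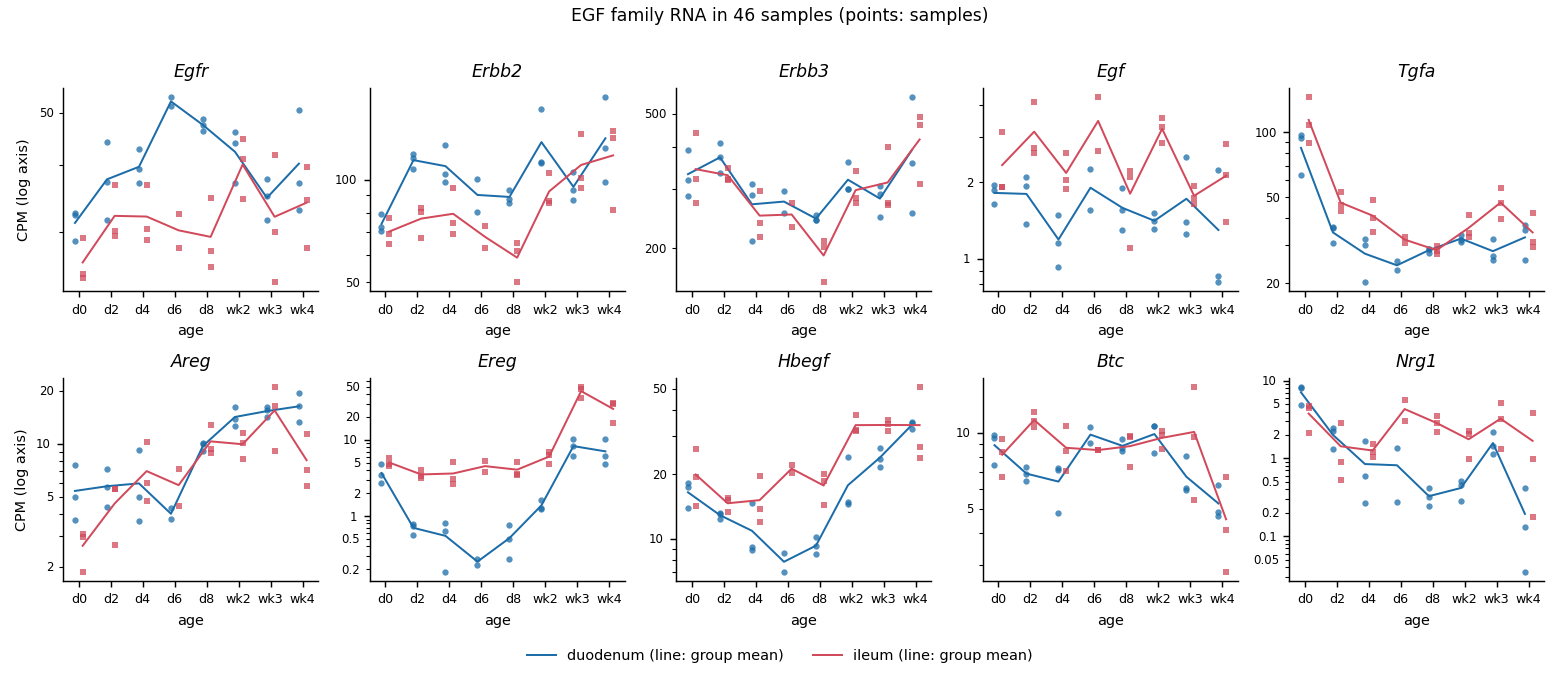
CPM on log axes (y, a separate scale per gene) at 8 ages (x) for the 10 genes in 46 samples, with duodenum as blue circles, ileum as red squares and lines through group means. Tgfa falls after day 0 in both regions, Ereg jumps at week 3, and the duodenal points of Nrg1 fall from 4.91 to 8.27 CPM at day 0 to at most 0.417 at week 4.

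Per kilobase of exon, with levels averaged over the 8 group means, Erbb3 was the highest member at 51.6 CPM per kilobase in the duodenum and 49.7 in the ileum. Erbb2 followed with 20.01 and 16.2. Among ligands Areg (7.88 in the duodenum, 6.56 in the ileum) and Tgfa (5.62 and 7.32) were highest and Egf was lowest (0.141 and 0.223), with Nrg1 next to it at 0.160 and 0.245. Ereg had the largest ratio between regions of the 10 members, with 0.679 CPM per kilobase in the duodenum and 2.91 in the ileum. These are descriptions that depend on the annotated exon length.

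Across all 8 ages, edgeR's quasi-likelihood test with Benjamini-Hochberg adjustment over 21986 genes called 8 of 10 members in the duodenum and 7 in the ileum. Of all genes tested, 67.4% and 58.7% were called, so the members' shares lie near or somewhat above those of the whole table. Between day 0 and week 4 in the duodenum 7 members were called, against 40.5% of all genes. Areg, Hbegf, Ereg and Erbb2 rose (20.4% of all genes did) and Nrg1, Tgfa and Btc fell (20.1%). In the ileum 6 were called, against 41.9% of all genes: the same 4 rose (21.5% of all genes) and Tgfa and Btc fell (20.4%). The median log2 change of the 10 members was 0.30 in the duodenum and 0.33 in the ileum, against -0.02 and 0.08 over all genes tested.

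**Figure D2:**
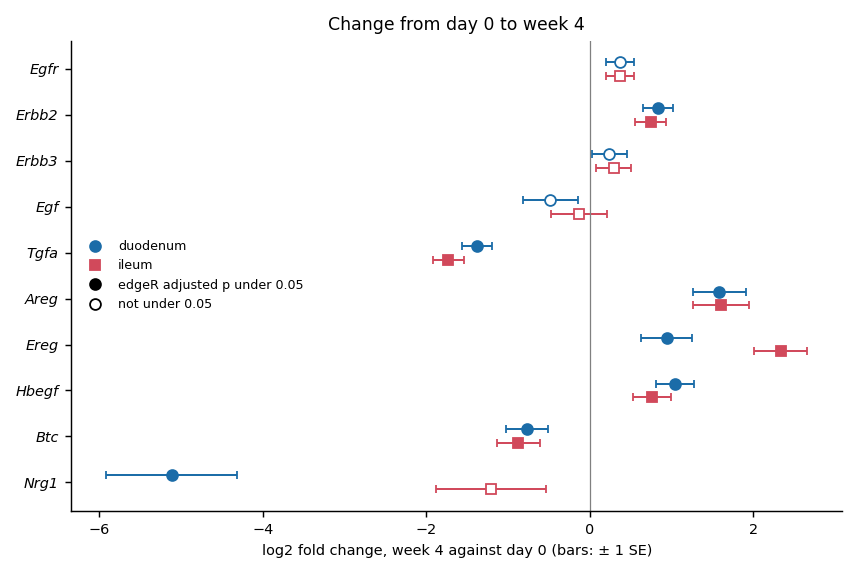
Log2 fold change of week 4 against day 0 (x, bars ± 1 standard error) for each member (y) in duodenum (blue circles) and ileum (red squares), filled where the edgeR adjusted p is under 0.05. Tgfa and Btc lie left of 0 and Areg, Ereg, Hbegf and Erbb2 right of 0 in both regions, while duodenal Nrg1 stands apart at -5.11.

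Of the 3 receptors, the rise from day 0 to week 4 was called for Erbb2 alone, the partner without a known ligand. In the duodenum it stood at 72.7, 70.5 and 79.3 CPM at day 0 and at 98.3, 175 and 124 at week 4, and in the ileum at 64.9, 69.3 and 77.0 and at 133, 140 and 81.5. Every week 4 sample lay above every day 0 sample of its region. The log2 changes were 0.84 ± 0.19 (SE, edgeR adjusted p = 4.04e-04) and 0.74 ± 0.19 (edgeR adjusted p = 0.0014). The duodenal course was not steady: samples stood at 116, 108 and 119 CPM at day 2, 93.6, 85.6 and 87.8 at day 8, 162, 113 and 112 at week 2 and 105, 93.4 and 87.4 at week 3.

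Egfr, the receptor of the EGF-type ligands, varied over a narrow range, with group means from 31.2 to 52.5 CPM in the duodenum and 26.4 to 40.1 in the ileum. In the duodenum it was lowest at day 0 (32.3, 32.5 and 28.8 CPM) and highest at day 6 (53.5 and 51.6), and these samples did not overlap. The age effect was called in the duodenum (edgeR adjusted p = 0.00924) and not in the ileum (0.0934). In the ileum, leaving out week 3 number 1 or number 3 gave 0.0306 and 0.0462. Leaving out the 8 samples that have no normalized column gave 0.0398. Those 8 are all day 4 samples and the day 6 samples numbered 3, so that run held no day 4. Week 4 against day 0 gave log2 changes of 0.37 in both regions, with adjusted p of 0.0796 and 0.0755 by edgeR. They were called without duodenum week 4 number 1 (0.53, adjusted p = 0.0216) and without ileum week 4 number 3 (0.47, adjusted p = 0.0438), and in the ileum also with RLE scaling (0.0443) and DESeq2 (0.0376). With all 48 samples the duodenal age effect had an adjusted p of 0.0774.

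Erbb3, the neuregulin receptor, had group means from 245 to 391 CPM in the duodenum and 190 to 420 in the ileum, both lowest at day 8 and highest at week 4. At day 8 the samples stood at 250, 242 and 242 CPM in the duodenum and at 159, 210 and 202 in the ileum. The week 4 samples spread from 255 to 560 and from 309 to 488 CPM, so in the ileum, and in the duodenum by a small margin, they lay above the day 8 samples. The age effect was called in the ileum (edgeR adjusted p = 0.0012) and missed the threshold in the duodenum (0.0514). In the duodenum it fell under 0.05 with RLE scaling (0.0199), DESeq2 (0.00659), no filter (0.039), all 48 samples (0.0461), and without 1 of 5 samples: day 0 numbers 1 (0.0459) and 3 (0.025), day 4 number 1 (0.0382) and week 4 numbers 1 (0.00278) and 3 (0.0321). Week 4 did not differ from day 0 beyond the spread, with log2 changes of 0.24 (95% interval -0.18 to 0.65) in the duodenum and 0.29 (-0.13 to 0.71) in the ileum.

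Tgfa, transforming growth factor alpha, a ligand made by epithelial cells themselves, was highest at day 0 in both regions. Duodenal samples stood at 63.1, 94.1 and 96.5 CPM at day 0, and ileal samples at 88.6, 108 and 145. By day 2 the samples stood at 36.4, 35.9 and 30.8 CPM and at 43.1, 52.6 and 45.9, and no later sample of either region exceeded 55.0. All day 0 samples thus lay above all later samples of both regions. At week 4 the log2 change from day 0 was -1.38 ± 0.18 in the duodenum (SE, edgeR adjusted p = 9.8e-08) and -1.73 ± 0.19 in the ileum (edgeR adjusted p = 7.76e-10), and at week 2 it was already -1.39 and -1.66. These calls held in every alternative run.

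Btc, betacellulin, which binds Egfr and Erbb4, kept a level of 4.82 to 12.1 CPM through week 2 in both regions. At week 3 it stood at 8.10, 6.03 and 5.96 CPM in the duodenum and spread over 15.2, 5.41 and 9.65 in the ileum. It was lower at week 4 than at day 0. The week 4 samples stood at 4.69, 4.84 and 6.22 CPM in the duodenum and 4.14, 2.82 and 6.68 in the ileum. At day 0 they had stood at 7.46, 9.79 and 9.55 and at 6.69, 8.39 and 9.48, so the groups did not overlap, though in the ileum the nearest samples were at 6.68 and 6.69. The log2 changes were -0.77 ± 0.25 (SE, edgeR adjusted p = 0.0133) and -0.87 ± 0.26 (0.00623). Single samples decide these calls: the duodenal one was lost without day 0 number 3 (adjusted p = 0.0651), week 4 number 1 (0.0805) or number 2 (0.0684), and the ileal one without week 4 number 2 (0.0868) or with the 2 groups fitted alone (0.0885). The age effects of Btc were lost likewise, in the duodenum without week 4 number 1 (0.0567) or 2 (0.0548) and in the ileum without week 4 number 2 (0.0757).

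Areg, amphiregulin, a ligand known for tissue repair, rose in both regions. In the duodenum it stood at 3.69, 4.96 and 7.54 CPM at day 0, 10.1, 9.99 and 9.11 at day 8 and 19.3, 13.3 and 16.3 at week 4. In the ileum it went from 1.88, 2.96 and 3.06 CPM at day 0 to 12.8, 8.82 and 9.31 at day 8 and 5.77, 7.14 and 11.3 at week 4. Day 8 and week 4 samples lay above day 0 samples in both regions. Week 4 exceeded day 0 by a log2 change of 1.59 ± 0.33 in the duodenum (SE, edgeR adjusted p = 1.46e-04) and 1.60 ± 0.34 in the ileum (2.16e-04). Both calls held in every alternative run. Week 2 was above day 0 by 1.38 (adjusted p = 0.00154) and 1.91 (9.44e-05). At week 3, ileal samples ranged from 9.07 to 21.0 CPM.

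Hbegf, heparin-binding EGF-like growth factor, went down before it rose in the duodenum. It stood at 18.1, 13.9 and 17.4 CPM at day 0, 7.06 and 8.61 at day 6, 24.0, 14.6 and 14.8 at week 2 and 32.5, 34.9 and 34.6 at week 4. The week 4 samples lay above all earlier duodenum samples. The log2 change to week 4 was 1.04 ± 0.23 (SE, edgeR adjusted p = 3.18e-04) and held in every alternative run. The ileum had no such dip to single digits, its lowest sample being at 11.98 CPM. Ileal samples stood at 19.5, 14.3 and 26.1 CPM at day 0 and 51.0, 26.9 and 23.7 at week 4, which overlap. Its log2 change of 0.76 ± 0.23 (edgeR adjusted p = 0.00695) rested on single samples, since it was 0.30 (adjusted p = 0.301) without week 4 number 1 and 0.57 (0.07) without day 0 number 2, with adjusted p of 0.0528 for all 48 samples and 0.097 with the 2 groups fitted alone.

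Between day 0 and week 2, 5 members were called in the duodenum (23.5% of all genes) and 4 in the ileum (12.3%). In the duodenum Erbb2 and Areg rose and Nrg1, Tgfa and Ereg fell. In the ileum Egfr, Hbegf and Areg rose and Tgfa fell. The median member change was 0.03 in the duodenum and 0.32 in the ileum, against -0.05 and 0.00 over all genes. The ileal Egfr and Hbegf calls (log2 0.60, adjusted p = 0.0134, and 0.76, adjusted p = 0.0216, edgeR) were both lost without ileum day 0 number 1 (0.0529 and 0.064) and without week 2 number 1 (0.0861 and 0.0981). Egfr was also lost without day 0 number 3 (0.0672) and Hbegf without day 0 number 2 (0.164) and with all 48 samples (0.145). Duodenal Egfr (0.44, adjusted p = 0.0537) passed with the 2 groups fitted alone (0.0268), without the 8 samples (0.0376) and without week 2 number 1 (0.0384).

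Ereg, epiregulin, which signals through Egfr and Erbb4, had group means that spanned 32.9-fold over the ages in the duodenum and 12.4-fold in the ileum. Duodenal samples stood at 2.69, 3.51 and 4.81 CPM at day 0 and at 0.187 to 0.819 from day 2 to day 8, which is 6 to 38 estimated counts. They were at 1.24, 1.63 and 1.27 CPM at week 2, then at 8.37, 6.10 and 10.4 at week 3 and 4.82, 10.3 and 6.08 at week 4. Ileal samples lay between 2.64 and 6.96 CPM at every age through week 2, reached 46.1, 35.5 and 49.7 at week 3, and stood at 16.9, 29.6 and 30.3 at week 4. Week 3 samples lay above all earlier samples of their region.

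Pups stayed with the dam until day 21, and the sample titles give week 3 without a day. The step from week 2 to week 3 was called for Ereg in both regions and for no other member in either. The log2 change was 2.59 ± 0.34 in the duodenum (SE, edgeR adjusted p = 2.07e-07) and 2.86 ± 0.33 in the ileum (6.42e-09), 6.02-fold and 7.24-fold, and both held in every alternative run. Of all genes 18.3% and 26.8% were called for this step, and the median changes of the members were -0.04 and 0.17, against 0.03 and 0.04 over all genes. Nrg1 in the duodenum (1.92, adjusted p = 0.0609) passed with DESeq2 (0.0269), without the 8 samples (0.0453) and with the 2 groups fitted alone (0.00471), where Btc passed too (-0.58, 0.0355). Egf in the ileum (-0.87, adjusted p = 0.0504) passed with DESeq2 (0.0465), the replicate block (0.0362), without the 8 samples (0.0315) and with the 2 groups fitted alone (0.0263). With 1 sample left out, Hbegf passed in the duodenum without week 2 number 1 (0.049), and Egfr (0.0175) and Areg (0.0458) in the ileum without week 3 number 1 and number 2.

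Of 7 epithelial markers, 3 rose with Ereg between week 2 and week 3 in each region: Krt20, of mature villus cells, by 2.87 and 4.93, Krt8 by 1.04 and 2.01, and Vil1 by 0.88 and 1.49 on the log2 scale. The other 4 were not called, with log2 changes from -0.32 (Krt18) to -0.02 (Epcam) in the duodenum and from 0.08 (Krt18) to 0.46 (Cldn7) in the ileum. The summed 7 markers were 4359 to 4747 CPM at week 2 and 6197 to 7240 at week 3 in the duodenum, and 4188 to 4588 and then 8964 to 11922 in the ileum. Their part in the Ereg rise was not tested. In bulk tissue, more cells of a type and more RNA per cell cannot be told apart.

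Over the whole course Ereg was 2.34 ± 0.32 higher at week 4 than at day 0 on the log2 scale in the ileum (SE, edgeR adjusted p = 1.68e-07). In the duodenum the difference was 0.94 ± 0.32 (edgeR adjusted p = 0.016), with groups that just miss overlapping, 4.81 against 4.82 CPM. That duodenal call was lost without day 0 number 1 (0.76, adjusted p = 0.094), without week 4 number 2 (0.61, adjusted p = 0.163) and with all 48 samples (adjusted p = 0.19). Duodenal Ereg at week 2 was below day 0 by 1.42 ± 0.34 on the log2 scale (edgeR adjusted p = 0.00168, and 0.0905 with all 48 samples).

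Egf, the family's founding ligand, was scarce in every group, with samples from 0.813 to 2.51 CPM in the duodenum (23 to 107 estimated counts) and 1.099 to 4.30 in the ileum. The age effect was not called in the duodenum (edgeR adjusted p = 0.496) nor in the ileum (0.0611). The ileal test passed with DESeq2 (0.0377), with the replicate block (0.0439), without the 8 samples named above (0.0379), and without ileum day 0 number 3 (0.0428) or day 6 number 1 (0.0468). Duodenal week 4 samples stood at 0.860, 2.22 and 0.813 CPM against 1.86, 1.64 and 1.95 at day 0. Without week 4 number 2 the fall was called, at -1.07 (adjusted p = 0.0161), against -0.48 with it.

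Nrg1, a neuregulin made mainly by cells around the epithelium, binds Erbb3 and Erbb4. Duodenal samples stood at 4.91, 7.97 and 8.27 CPM at day 0, 0.460, 0.507 and 0.285 at week 2, 1.13, 2.16 and 1.44 at week 3 and 0.130, 0.417 and 0.0354 at week 4. The week 4 values rest on 1 to 15 estimated counts a sample, and the day 0 values on 175 to 454. The log2 change to week 4 was -5.11 ± 0.80 (SE, edgeR adjusted p = 2.46e-06), 34.5-fold, with a 95% interval of -6.68 to -3.54. At week 2 it was -4.09 ± 0.75 (edgeR adjusted p = 7.97e-05), and both held in every alternative run.

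The ileal Nrg1 samples went from 2.14, 4.43 and 4.73 CPM at day 0 to 0.175, 0.993 and 3.87 at week 4, which overlap. The log2 change of -1.21 ± 0.67 was not called (edgeR adjusted p = 0.148) but was -2.60 (adjusted p = 0.00562) without ileum week 4 number 3. That sample also held the most RNA of enteric neurons (6 markers, 7.82 CPM against 3.90 and 4.59), glia (4 markers, 24.3 against 4.02 and 5.40), endothelium (4 markers, 41.6 against 12.2 and 18.8) and immune cells (6 markers, 301 against 129 and 193) of its group, though not of fibroblasts or smooth muscle. Ileum week 4 number 3 also had the fewest total counts of all samples used (16824021). The part of these cell types or of depth in its Nrg1 value was not tested. In order of age the ileal group means of Nrg1 were 3.77, 1.43, 1.26, 4.30, 2.85, 1.76, 3.23 and 1.68 CPM. They did not fall steadily. The age effect of Nrg1 in the ileum was likewise not called (edgeR adjusted p = 0.126). It was called with ileum week 4 number 3 (0.0111) or ileum day 2 number 1 (0.0367) left out.

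Endothelial markers fell in the duodenum over the same ages as Nrg1. The 4 endothelial markers summed to 89.9, 133 and 172 CPM at day 0 and to 9.46, 8.87 and 8.49 at week 4, and all 4 fell, with a median log2 change of -4.57. The 6 fibroblast markers summed to 104, 125 and 188 CPM at day 0 and 22.0, 80.4 and 43.9 at week 4, with 2 of 6 called, both lower (Pdgfra and Col1a2). Of the other lists 2 of 4 glial markers and 1 of 6 neuronal markers were called lower, and 1 of 6 smooth muscle markers (Cnn1) was called higher. No endothelial or fibroblast marker was at 0 in all samples of a group, and their part in the fall of Nrg1 was not tested.

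**Figure D3:**
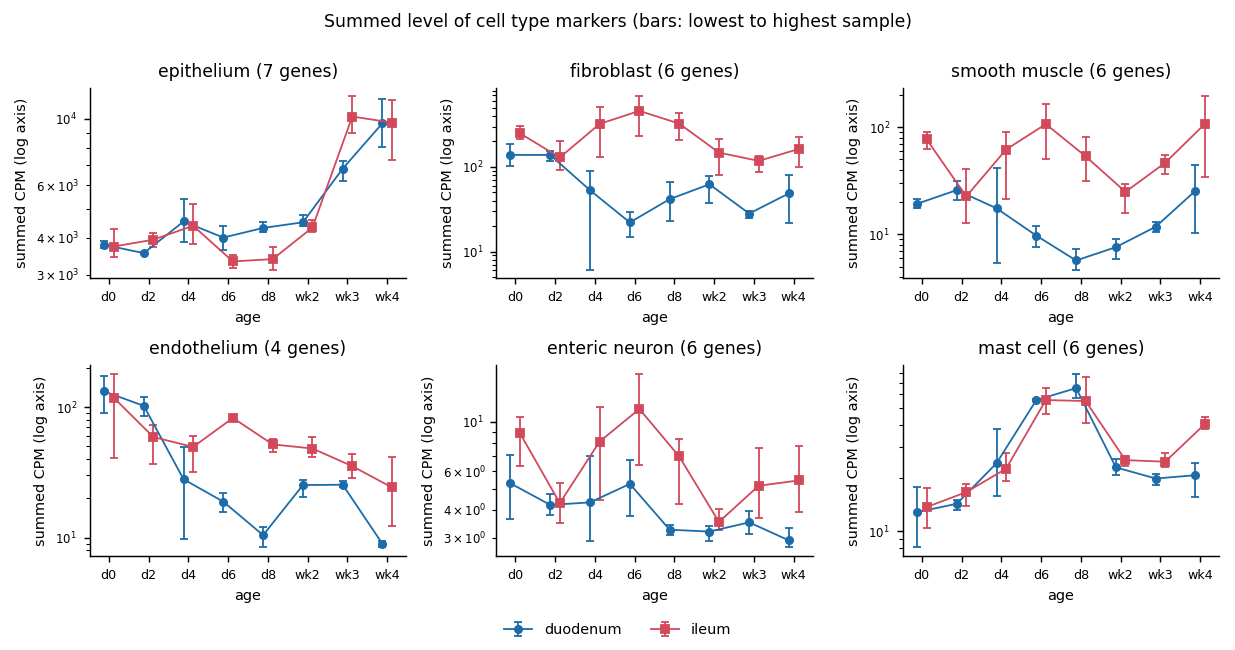
Summed CPM on log axes (y) of 6 marker lists at 8 ages (x), duodenum in blue circles and ileum in red squares, points at group means and bars from the lowest to the highest sample. Endothelial sums in the duodenum fall from 89.9 to 172 CPM at day 0 to 8.49 to 9.46 at week 4, and fibroblast and smooth muscle sums have higher means in the ileum at 7 of 8 ages, day 2 being the exception.

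Averaged over the 8 ages, 7 members differed between ileum and duodenum, against 62.1% of all genes. Of these 5 were higher in the ileum (31.9% of all genes) and 2 lower (30.2%). On the log2 scale Ereg differed by 2.37 ± 0.13 (SE, adjusted p = 9.55e-18 by edgeR), Nrg1 with 1.36 ± 0.25, Egf with 0.63 ± 0.12, Hbegf with 0.59 ± 0.08 and Tgfa with 0.36 ± 0.07. Egfr (-0.34 ± 0.06) and Erbb2 (-0.32 ± 0.07) were lower, all at an edgeR adjusted p of 1.11e-04 or less. These 7 calls held in every alternative run. The member median was 0.25, against 0.08 over all genes. Erbb3 (-0.07), Btc (0.14) and Areg (-0.25, adjusted p = 0.0605) were not called. Areg passed in 13 of its 52 alternatives, with adjusted p from 0.0122 to 0.155, among them the replicate block (0.0319). Its ileal mean was the higher at 4 of 8 ages and the lower at 4. The samples did not overlap at 1 of the former ages (day 6) and at 3 of the latter.

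The regional differences kept their sign over ages to a different degree. The ileal mean was the higher at all 8 ages for Ereg, Egf and Tgfa and the lower at all 8 for Egfr. For Ereg the samples of the regions did not overlap at 7 of 8 ages, day 0 being the exception. The log2 difference of means rose from 0.46 at day 0 to 4.17 at day 6. Between these ages the duodenal mean went from 3.67 to 0.252 CPM and the ileal mean from 5.05 to 4.53. The 2 duodenal samples of day 6 held only 9 and 11 estimated counts of Ereg. Nrg1 was lower in the ileum at day 0 and day 2 and higher at the 6 later ages. Hbegf differed most at day 6 (1.44) and by 0.00 at week 4. The week 4 ileal samples were spread on both sides of the duodenal ones, at 51.0, 26.9 and 23.7 CPM against 32.5, 34.9 and 34.6. Fibroblast and smooth muscle markers were also higher in the ileum, all 6 of 6 of each list, with median log2 differences of 2.05 and 1.95, and sums over all samples of 6.08 to 188 against 81.2 to 686 CPM and 4.68 to 44.5 against 12.9 to 194. Markers of pancreatic acinar cells were lower in the ileum for 8 of 10. The part of these cell types in the differences of Nrg1 and the other members was not tested.

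**Figure D4:**
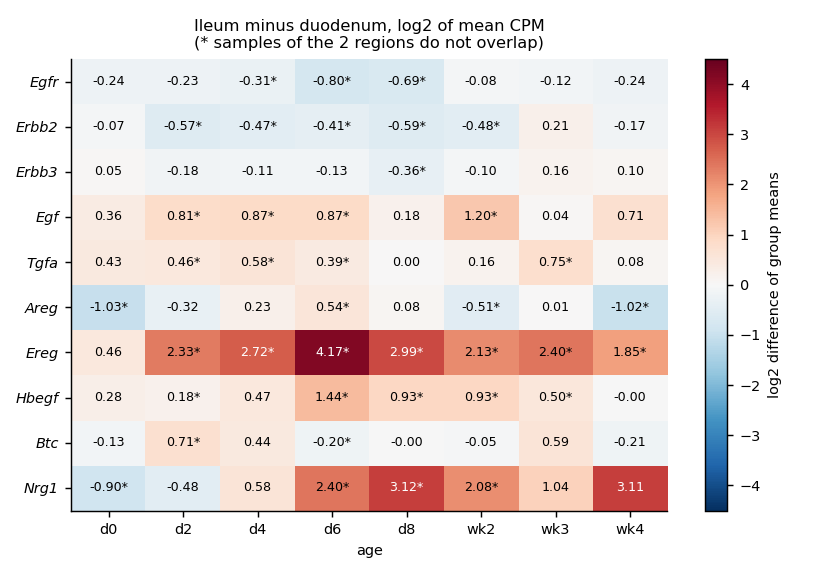
Log2 difference of mean CPM, ileum minus duodenum, for each member (rows) at each age (columns), red where the ileum is higher and blue where it is lower. Stars mark ages at which the samples of the regions do not overlap, at 7 of 8 ages for Ereg and 5 for Hbegf. The highest value, 4.17, is that of Ereg at day 6, where the 2 duodenal samples held 9 and 11 estimated counts.

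At day 0 alone edgeR called no member at an adjusted p under 0.05, against 6.1% of all genes, while DESeq2 called 1. At an unadjusted p under 0.05 edgeR had 2, Areg and Tgfa. Nearest was Areg, with 3.69, 4.96 and 7.54 CPM in duodenum and 1.88, 2.96 and 3.06 in ileum, so that the ileum was lower by a log2 value of -1.04 ± 0.34 (SE, adjusted p = 0.0603). It was called with DESeq2 (0.0344), the replicate block (0.0488), without the 8 samples (0.0277) and without duodenum day 0 number 1 (-1.25, adjusted p = 0.0344). The member median at day 0 was -0.01, against -0.00 over all genes. Ddx3y was at 1 CPM or more in 3 of 3 duodenum and 1 of 3 ileum samples here. Sex and region thus cannot be fully told apart at this age.

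At week 4 edgeR called 3 members, against 28.4% of all genes. Ereg was higher in the ileum (1.85 ± 0.32 SE, adjusted p = 5.2e-05), Nrg1 too (3.00 ± 0.80, adjusted p = 0.00613), and Areg lower (-1.02 ± 0.33, adjusted p = 0.019). The Areg samples did not overlap (13.3 to 19.3 CPM against 5.77 to 11.3), but the call was lost without duodenum week 4 number 1 (0.0698), ileum week 4 number 1 (0.0692) or number 2 (0.0619). The Nrg1 difference was 1.59 (adjusted p = 0.181) without ileum week 4 number 3, and with the 2 groups fitted alone Nrg1 (0.0949) and Areg (0.0513) both missed. Egf (0.71, adjusted p = 0.111) passed without duodenum week 4 number 2 (1.31, 0.00755) or ileum week 4 number 1 (0.92, 0.0492). The member median was 0.04, against 0.08 over all genes.

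Whether age changed the members differently by region was tested as the interaction, which edgeR called for 3 members, against 22.4% of all genes. They were Ereg (adjusted p = 4.06e-04), Nrg1 (0.00812) and Hbegf (0.0265). With the day 6 samples numbered 3 put back under their labels none passed, at 0.343, 0.0664 and 0.592. The Hbegf call was also lost without duodenum day 2 number 1 (0.0516) or duodenum day 6 number 1 (0.0797). The same held without ileum day 6 number 1 (0.0647) or 2 (0.0501). With Areg and Btc added, 5 members passed without ileum week 3 number 2 or week 4 number 3. Areg also passed with DESeq2 (0.0264) and without the 8 samples (0.0469). It passed too without duodenum day 0 number 1 (0.04998), day 4 number 3 (0.0171) or week 4 number 2 (0.0486). Leaving out ileum day 4 number 1 gave 0.0469. In 44 of its 52 alternatives Areg stayed uncalled.

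Of other family genes, Erbb4, Epgn and Nrg3 did not pass the filter. Erbb4, the remaining receptor, stood at 0.539 CPM or less in every sample and had 0 counts in 9 of 23 duodenum and 10 of 23 ileum samples. Epgn reached at most 0.134 CPM and Nrg3 at most 0.386. Nrg4, a ligand of Erbb4, was at 2.72 ± 0.73 CPM at day 0 and 1.65 ± 0.40 at week 4 in the ileum (SD over 3 samples), a fall with a log2 change of -0.74 ± 0.25 (edgeR adjusted p = 0.0163). In the duodenum its change was -0.26 (adjusted p = 0.387).

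Of 8 genes of ligand release and trafficking, 3 rose and 3 fell from day 0 to week 4 in each region. Of all genes tested, 20.4% were higher and 20.1% lower in the duodenum and 21.5% and 20.4% in the ileum. Adam9, a membrane protease, fell, with means of 81.1 CPM at day 0 against 26.1 at week 4 in the duodenum and 73.4 against 32.2 in the ileum. Rhbdf1, a carrier of the main ligand-cutting protease Adam17, fell too, by 1.25 and 1.27 on the log2 scale. Frmd8, which stabilises that complex, rose by 1.43 and 0.62. Adam17 itself changed by 0.17 in the duodenum (adjusted p = 0.4) and 0.37 in the ileum (adjusted p = 0.0478, edgeR). The list medians were 0.27 and -0.22, with all genes at -0.02 and 0.08.

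Among 10 brakes on the receptors, 2 rose and 5 fell in the duodenum, and 4 rose and 2 fell in the ileum, where 20.4% and 20.1% of all genes did so in the duodenum and 21.5% and 20.4% in the ileum. Lrig1, a membrane protein that lowers ErbB receptor levels and marks crypt cells, rose, with 13.4 ± 1.18 CPM at day 0 against 54.4 ± 1.61 at week 4 in the duodenum and 11.7 ± 0.31 against 46.3 ± 18.5 in the ileum (SD over 3 samples). The log2 changes were 2.02 and 1.99 (edgeR adjusted p = 2.91e-09 and 4.46e-09). Its relative Lrig3 rose by 0.75 and 1.41. Rnf41, an E3 ligase for Erbb3, fell by 0.89 and 1.44. The list medians were -0.21 and 0.13.

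Among adaptors and kinases that carry the signal to ERK, 3 of 16 genes rose and 5 fell in the duodenum, and 4 rose and 5 fell in the ileum, near the shares over all genes of 20.4% and 20.1% in the duodenum and 21.5% and 20.4% in the ileum. Braf fell by 1.36 and 0.64 on the log2 scale (edgeR adjusted p = 2.09e-06 and 0.0141). The list medians were -0.02 and -0.22.

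Of 17 feedback and target genes of the ERK cascade, 8 rose and 2 fell in the duodenum, and 7 rose and 4 fell in the ileum, against 20.4% and 20.1% of all genes in the duodenum and 21.5% and 20.4% in the ileum. The list medians were 0.40 and 0.43. Fos, an immediate early gene, went from 7.74 to 16.3 CPM at day 0 up to 93.6 to 124 at week 4 in the duodenum, and from 5.01 to 27.9 up to 85.0 to 199 in the ileum. Fos rose by 3.27 and 2.91 on the log2 scale and Phlda1 by 2.01 and 1.74, while Spry4, an inhibitor of the cascade, fell by 2.84 and 2.76. Mean Spry4 was 6.70 CPM at day 0 against 0.937 at week 4 in the duodenum, and 5.24 against 0.767 in the ileum. Genes of this list thus moved in both directions.

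**Figure D5:**
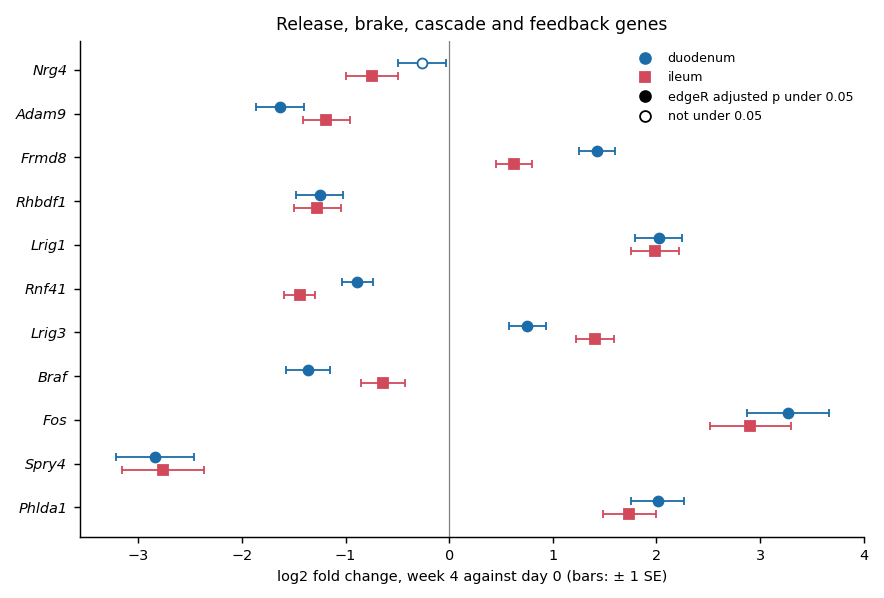
Log2 fold change of week 4 against day 0 (x, bars ± 1 standard error) for 11 related genes (y), duodenum in blue circles and ileum in red squares, filled where the edgeR adjusted p is under 0.05. Lrig1, Fos and Phlda1 lie near or above 2 in the duodenum, and Spry4 lies below -2 in both regions.

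As a description over 16 group means, with libraries shared between genes and no test, Ereg and Hbegf had a Pearson correlation of 0.90. The members on chromosome 5 were less alike, with 0.37 for Areg and Ereg, -0.26 for Ereg and Btc and -0.21 for Areg and Btc. The genes most alike to Ereg in pattern among 12414 were Trpv3, a heat-gated channel (0.97), and Ahnak (0.97). Those most alike to Hbegf were Nek3 (0.98) and Rhod (0.95), and to Nrg1 Fabp4, a fatty acid binding protein (0.94), and Cd200 (0.92). Tgfa was matched by Fam177a (0.92) and Eps8l3 (0.90), Areg by Cyp3a25 and Defa39 (both 0.86) and Btc by Phf3 (0.92) and Fhit (0.90). The receptors were matched by Gpld1 (0.93) and Zfp748 (0.91) for Egfr, Rab19 (0.91) and Galnt10 (0.90) for Erbb2 and Gsdmd (0.89) and Arel1 (0.84) for Erbb3. Egf was matched by Tctn1 and Gm48415 (both 0.91).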

How the data were processed

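RNA was measured by total RNA sequencing in whole-thickness duodenum and ileum at 8 ages. Per the submitters' processing notes, STAR 2.6.1d, Salmon 0.14.2 and DESeq2 1.30.1 were used with build mm10; the annotation release is not given in the sources used here. The authors deposited estimated counts per gene, which are whole numbers, and normalized tables whose signal was a constant multiple of those counts in all 40 columns and which supplied symbols only. The members and lists were chosen with earlier results of these data known.

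The test on the 46 samples was that of edgeR 4.0.16, run under R 4.3.3 (TMM, filterByExpr, robust quasi-likelihood fit, 1 mean per group), with Benjamini-Hochberg adjustment over all 21986 genes and a threshold of 0.05. A standard error is the log2 change divided by the square root of F. The procedure was also run on simulated data in which 200 genes were changed in 1 group. In these data far more genes changed, and no result here rests on that run. Of 132 listed genes 131 matched 1 identifier; Muc6 did not. Exon lengths came from GENCODE M21. Named were all members, the 3 genes of each related list with the largest called change of week 4 against day 0 in either region, and the 2 genes most alike to each member. The results of 2 genes that this rule selects are not reported here. Adam17, Erbb4, Epgn and Nrg3 were named after their values were seen. Alternatives were RLE scaling, no filter, DESeq2 1.42.0, all 48 samples and leaving out the 8 samples that have no normalized column. Those 8 are all day 4 samples and the day 6 samples numbered 3, which the main fit already left out. That run therefore held no day 4. Others were a replicate block, the 2 compared groups fitted alone, and each of 46 samples left out in turn. The block was the sample number over all groups for comparisons of ages, and the number within an age for comparisons of regions.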

Additional observations from a re-analysis of the deposited data

Results flagged for a closer look

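The change with age differed between ileum and duodenum for 3 members by the interaction test. For Ereg the edgeR adjusted p was 4.06e-04, with the regions overlapping at day 0 and at none of the 7 later ages. For Nrg1 it was 0.00812, with the ileal mean below the duodenal one at day 0 and day 2 and above it at the 6 later ages. For Hbegf it was 0.0265, with duodenal samples at 7.06 and 8.61 CPM at day 6 against 20.3 and 22.2 in the ileum. Week 4 means were 34.0 and 33.9 CPM, the ileal one from samples at 51.0, 26.9 and 23.7.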

How the results depend on the processing

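Over the alternatives that used other settings, single member results stayed on their side of the threshold 760 times, gained a call 28 times and lost one 12 times. With 1 sample left out these numbers were 1795, 40 and 25, and no called value changed sign. For week 3 against week 2 the count of members rose from 1 to 2 in both regions with DESeq2 and without the 8 samples, and with the 2 groups fitted alone to 3 (duodenum) and 2 (ileum). For ileum against duodenum it rose from 0 to 1 at day 0 with DESeq2 and without the 8 samples, and fell from 3 to 1 at week 4 with the 2 groups fitted alone. The interaction count fell from 3 to 0 with all 48 samples. With 1 sample left out, counts ran from 7 to 9 and 6 to 8 for the age effects (duodenum, then ileum), 6 to 7 and 5 to 8 for week 4 against day 0, 5 to 6 and 2 to 4 for week 2 against day 0, and 1 to 2 in both regions for week 3 against week 2. They ran from 7 to 8 for the averaged regions, 0 to 1 at day 0, 2 to 4 at week 4 and 2 to 5 for the interaction. The cause of these changes was not tested. Counts under 20 limit Ereg in the duodenum and Nrg1 in both regions. At week 4, Nrg1 had as few as 1 count in a duodenum sample and 3 in an ileum sample.

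The replicate block gave 2 members for ileal week 3 against week 2 and 1 for the regions at day 0, and changed no other count by over 1.5 times. In comparisons of regions the block was the number within an age. There the edgeR adjusted p of Areg passed for the averaged regions (0.0605 to 0.0319) and at day 0 (0.0603 to 0.0488). In comparisons of ages the block was the sample number over all groups, although the labels do not tie numbers to mice. There Egf in the ileum passed for the age effect (0.0611 to 0.0439) and for week 3 against week 2 (0.0504 to 0.0362). For same-numbered duodenum and ileum samples of an age, deviations from the group means of log2 CPM were correlated over 12415 genes. The correlation was over 0.1 in 16 of 23 pairs (mean 0.155, range -0.363 to 0.672). The 2 pairs of day 6 are both counted but share 1 value (0.187), since the deviations of 2 samples mirror each other. The labels do not tie the numbers to mice and 7 pairs fell short of 0.1, so the fit without the block was kept, but many pairs deviated together and the regions had equal numbers of samples with Ddx3y at every age but day 0. At day 0, 3 of 3 duodenum and 1 of 3 ileum samples had Ddx3y at 1 CPM or more. All samples were at 19.9 CPM or more or at 0.359 or less. Under their labels the day 0 pieces therefore cannot all come from the same mice. Whether pieces share mice at the other ages was not settled.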

Other observations

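The 2 samples left out, both numbered 3 at day 6, had the following values. In the one labelled duodenum Ereg stood at 2.53 CPM, Hbegf at 19.3, Nrg1 at 2.99 and Pdx1 at 0.115, against 0.276 and 0.227, 7.06 and 8.61, and 1.36 and 0.278 CPM for the first 3 genes in the day 6 duodenum samples 1 and 2. In the one labelled ileum Ereg stood at 0.213 CPM, Hbegf at 6.35, Nrg1 at 0.853 and Pdx1 at 14.6, against 5.30 and 3.75, 22.2 and 20.3, and 5.56 and 3.04 CPM for the first 3 genes in the day 6 ileum samples 1 and 2.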
